A study of Mus musculus with 8 samples.

Results

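Imprinted genes are expressed from 1 parental allele, and 10 of them were followed here in mouse macrophages grown from bone marrow: Igf2r, H13, Trappc9, Peg13, Commd1, Zrsr1, Impact, Plagl1, Kcnq1ot1 and Snrpn. They were taken by gene symbol from a deposited table of 55376 genes, and all 10 had a row. Of the 10, 9 were measured at 1 CPM (counts scaled to library size) or more in each of 8 libraries, and those 9 were also the ones tested, among 13721 genes that passed a filter on low counts. The exception was Snrpn, which had 1 read in all.

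The cells came from male mice aged 13 weeks that carried the genotype label DNMT3A-HET (HET) or were wild type (WT), with 3 mice named for each genotype. Marrow was cultured with M-CSF, the growth factor of macrophages, at 50 ng/mL, IL-6 was added to the treated cultures at 10 ng/mL on day 6 for 2 days, and polyadenylated RNA was collected on day 8. The 4 groups were HET with IL-6, HET control, WT with IL-6 and WT control, each with 2 libraries, numbered 1 and 2. The labels give neither the Dnmt3a allele nor a Cre driver. Nor do they tie a library to a mouse, so p-values measure no more than the variation among these libraries, part of which may be technical. Gene counts do not separate the parental alleles, so every value below is the sum over both.

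In the mouse, each of these loci carries a mark of DNA methylation that is laid down in the oocyte by DNMT3A together with its cofactor DNMT3L. After fertilisation the mark is copied at every cell division by DNMT1 and UHRF1 and is shielded by the zinc finger protein ZFP57 with TRIM28. The unmethylated paternal copy then expresses Peg13, Zrsr1, Impact, Plagl1, Kcnq1ot1 and Snrpn, whereas Igf2r is expressed from the maternal copy and H13, Trappc9 and Commd1 show a maternal bias in tissues such as brain. At several loci the paternal transcript lies inside the maternal gene: Peg13 in Trappc9, Zrsr1 in Commd1, Mcts2 in H13 and the antisense RNA Airn across Igf2r.

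HET IL-6 number 2 was the deepest library with 50137897 counts, and the other 7 held 18926641 to 24881197. The 8 macrophage markers, read as a check of the cell label, were all detected, with a summed level of 11900 to 14100 CPM. Summed neutrophil markers reached 0.916 to 2.58 CPM, B cell markers 0.704 to 1.42 CPM, T and NK cell markers 0.214 to 4.14 CPM, mast cell and basophil markers 0.161 to 0.756 CPM and erythroid markers 0.304 to 0.663 CPM. Pax5, Cd3e, Ncr1 and Prss34 were at 0 in every library. The stromal, endothelial and stem or progenitor lists are given with the results below. Dnmt3a was measured at 139.9 and 213 CPM in HET IL-6, against 174 and 183 CPM in WT IL-6, and at 166 and 248 CPM in HET control, against 275 and 243 CPM in WT control. The number 1 libraries labelled HET were thus below both WT libraries of their treatment and the number 2 libraries labelled HET were not, and over both treatments HET differed from WT by a log2 fold change of -0.17 ± 0.17 (SE, edgeR adjusted p = 0.536). HET below therefore stands for libraries labelled HET. The called differences of Trappc9 and Uhrf1 between HET and WT are also given without both number 2 libraries.

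Promoter sequence was looked up in a RefSeq table for build GRCm38.p6, in windows of 300 bases that run from 250 bases before to 50 bases after a transcription start. The table held 11 windows for 7 of the 10 genes. The windows of 3 genes are printed as a description: Igf2r and H13, which were higher with IL-6, and Zrsr1, whose IL-6 estimates had opposite signs in the 2 genotypes. They were set by transcription starts and not by the position of the imprinted methylation mark, which may lie elsewhere in the locus. Methylation was not measured, and no result below rests on these windows. Capitals mark CG dinucleotides, where DNA can be methylated. The Igf2r window is chr17:12769657-12769956 on the minus strand, the H13 window is chr2:152669211-152669510 on the plus strand and the Zrsr1 window is chr11:22971755-22972054 on the plus strand.
Igf2r: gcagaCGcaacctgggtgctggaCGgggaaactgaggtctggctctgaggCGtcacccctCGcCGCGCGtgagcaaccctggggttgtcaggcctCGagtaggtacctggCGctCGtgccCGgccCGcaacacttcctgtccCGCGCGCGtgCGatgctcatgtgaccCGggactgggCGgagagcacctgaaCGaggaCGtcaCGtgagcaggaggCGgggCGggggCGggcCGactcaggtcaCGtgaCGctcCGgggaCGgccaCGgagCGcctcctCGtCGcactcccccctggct
H13: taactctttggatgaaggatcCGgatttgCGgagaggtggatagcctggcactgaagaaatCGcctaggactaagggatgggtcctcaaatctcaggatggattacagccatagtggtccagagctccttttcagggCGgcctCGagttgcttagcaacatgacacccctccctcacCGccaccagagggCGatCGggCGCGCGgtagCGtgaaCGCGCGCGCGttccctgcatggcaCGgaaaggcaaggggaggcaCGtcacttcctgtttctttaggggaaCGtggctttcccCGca
Zrsr1: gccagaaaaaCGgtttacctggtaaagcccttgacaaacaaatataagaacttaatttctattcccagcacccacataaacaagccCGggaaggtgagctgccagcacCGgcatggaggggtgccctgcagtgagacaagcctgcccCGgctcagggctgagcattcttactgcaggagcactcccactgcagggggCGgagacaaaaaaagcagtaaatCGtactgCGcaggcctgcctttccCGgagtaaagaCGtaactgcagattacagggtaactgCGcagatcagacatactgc
The Igf2r window held 34 CG dinucleotides, more than 92.3% of the 32841 promoter windows of the table, where the median was 7. The H13 window held 21 CG, more than 75.2% of windows, and the Zrsr1 window held 10 CG, more than 56.5% of windows. The hexamer TGCCGC bound by ZFP57, searched on both strands, was present in 3 of the 11 windows, 1 each of Plagl1, Commd1 and Snrpn, and in 11.6% of all windows. The STAT core motif TTCNNNGAA, also searched on both strands, was in 0 of the 11 windows and in 8.3% of all windows.

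Per kilobase of exon, the mean level over 8 libraries was highest for Igf2r (29.4 CPM per kb), the receptor that carries mannose 6-phosphate-tagged enzymes to lysosomes and takes up the growth factor IGF2. Impact, a regulator of translation that opposes the kinase GCN2, followed at 17.5 CPM per kb, and H13, the signal peptide peptidase of the endoplasmic reticulum, at 12.6 CPM per kb. Trappc9, a subunit of a complex that tethers transport vesicles, had 4.58 CPM per kb, the noncoding RNA Peg13 had 3.32 CPM per kb and Commd1, a copper-handling protein that also limits NF-kB, had 2.96 CPM per kb. Zrsr1, an intronless relative of the splicing factor gene Zrsr2, had 1.38 CPM per kb. Plagl1, a zinc finger transcription factor, had 0.387 CPM per kb and the long noncoding RNA Kcnq1ot1 had 0.0505 CPM per kb over an annotated exon length of 93092 bases. The range over libraries overlapped between Trappc9 (3.58 to 5.28) and Peg13 (2.34 to 4.21), and between Peg13 and Commd1 (2.73 to 3.43), whereas no other neighbours in this order overlapped. The related Zrsr2 had 3.76 CPM per kb, above Zrsr1.

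**Figure D1:**
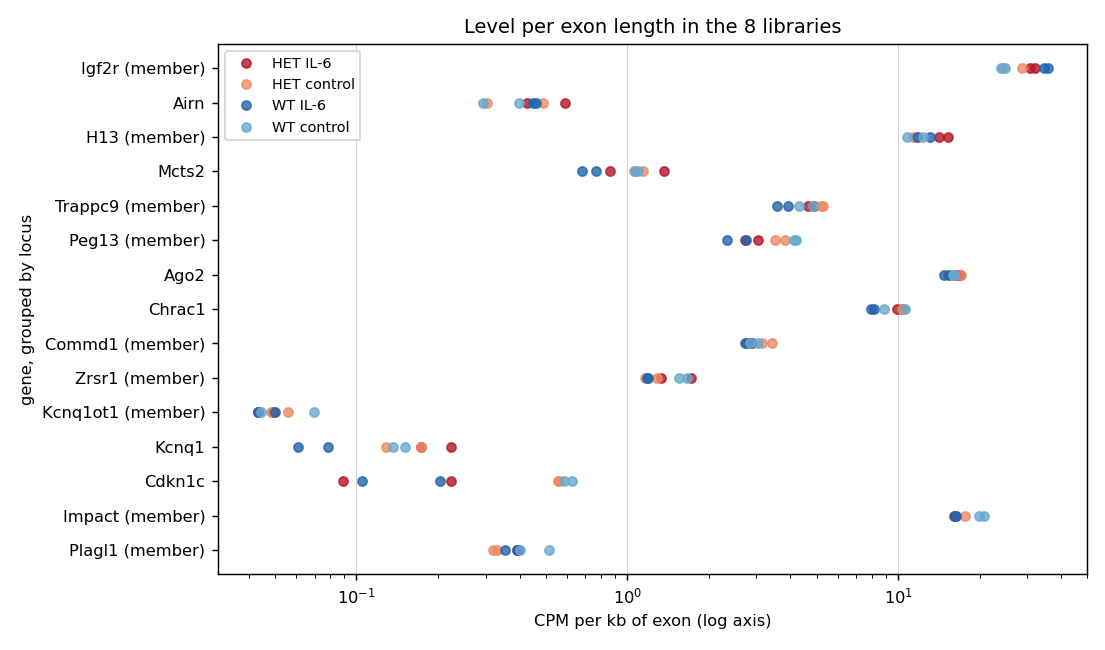
Level of 9 of the imprinted genes (marked member) and of neighbouring genes at the same loci, in CPM per kb of exon on a log axis. Each point is 1 library, coloured by group, and rows follow the loci from Igf2r and Airn at the top to Plagl1 at the bottom; Igf2r lay between 23.9 and 35.8 CPM per kb and Kcnq1ot1 between 0.0432 and 0.0696 CPM per kb.

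Averaged over genotype, IL-6 raised Igf2r and H13 and lowered Peg13, Impact and Trappc9. These 5 of the 9 tested genes were called, where 23.6% of all tested genes were (edgeR quasi-likelihood test, adjusted p under 0.05). In HET cells 1 of the 9 was called, H13, which rose, where 18.3% of all tested genes were called. In WT cells 4 of the 9 were called: Igf2r rose and Peg13, Impact and Trappc9 fell, where the share of all tested genes called was likewise 18.3%. The median log2 fold change of the 9 was -0.07 in HET, beside 0.0054 for all tested genes, and -0.29 in WT, beside -0.014. Of the 5 tested genes known to be expressed from the paternal allele, 0 were called in HET, with estimates below 0 for 3. In WT 2 of them were called, with estimates below 0 for all 5, but leaving out 1 library the Kcnq1ot1 estimate ran from -0.57 to 0.0741. Some marker lists of other cells also differed between IL-6 and control. The B cell sums, with 1 of 5 markers at 1 CPM, were lower with IL-6 in both genotypes, without overlap. They were 0.704 to 1.13 CPM in HET IL-6, against 1.18 to 1.42 CPM in HET control, and 0.803 to 1.16 CPM in WT IL-6, against 1.27 to 1.32 CPM in WT control. Other lists did not differ in the same way in the 2 genotypes. The stem and progenitor, endothelial, neutrophil, and mast cell and basophil sums moved in opposite directions in HET and WT, and the T and NK cell sums overlapped in HET. The 5 stem and progenitor markers, of which 3 reached 1 CPM in at least 1 library, summed to 15.6 to 18.1 CPM in HET IL-6, against 24.5 to 31.2 CPM in HET control, and to 35.7 to 45.5 CPM in WT IL-6, against 20.2 to 20.6 CPM in WT control. The 5 endothelial markers, of which 4 reached 1 CPM in at least 1 library and Emcn was at 0, summed to 138 to 140 CPM in HET IL-6, against 87.4 to 97.6 CPM in HET control, and to 98.9 to 100 CPM in WT IL-6, against 113 to 142 CPM in WT control. The 6 T and NK cell markers, of which 1 reached 1 CPM, summed to 0.911 to 2.44 CPM in HET IL-6, against 1.21 to 1.57 CPM in HET control, and to 0.214 to 0.785 CPM in WT IL-6, against 1.81 to 4.14 CPM in WT control. Neither the cells that gave these marker reads nor their part in the changes of the imprinted genes was tested. Since the libraries are of bulk RNA, fewer cells of a type and less RNA per cell cannot be told apart in any of these values.

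**Figure D2:**
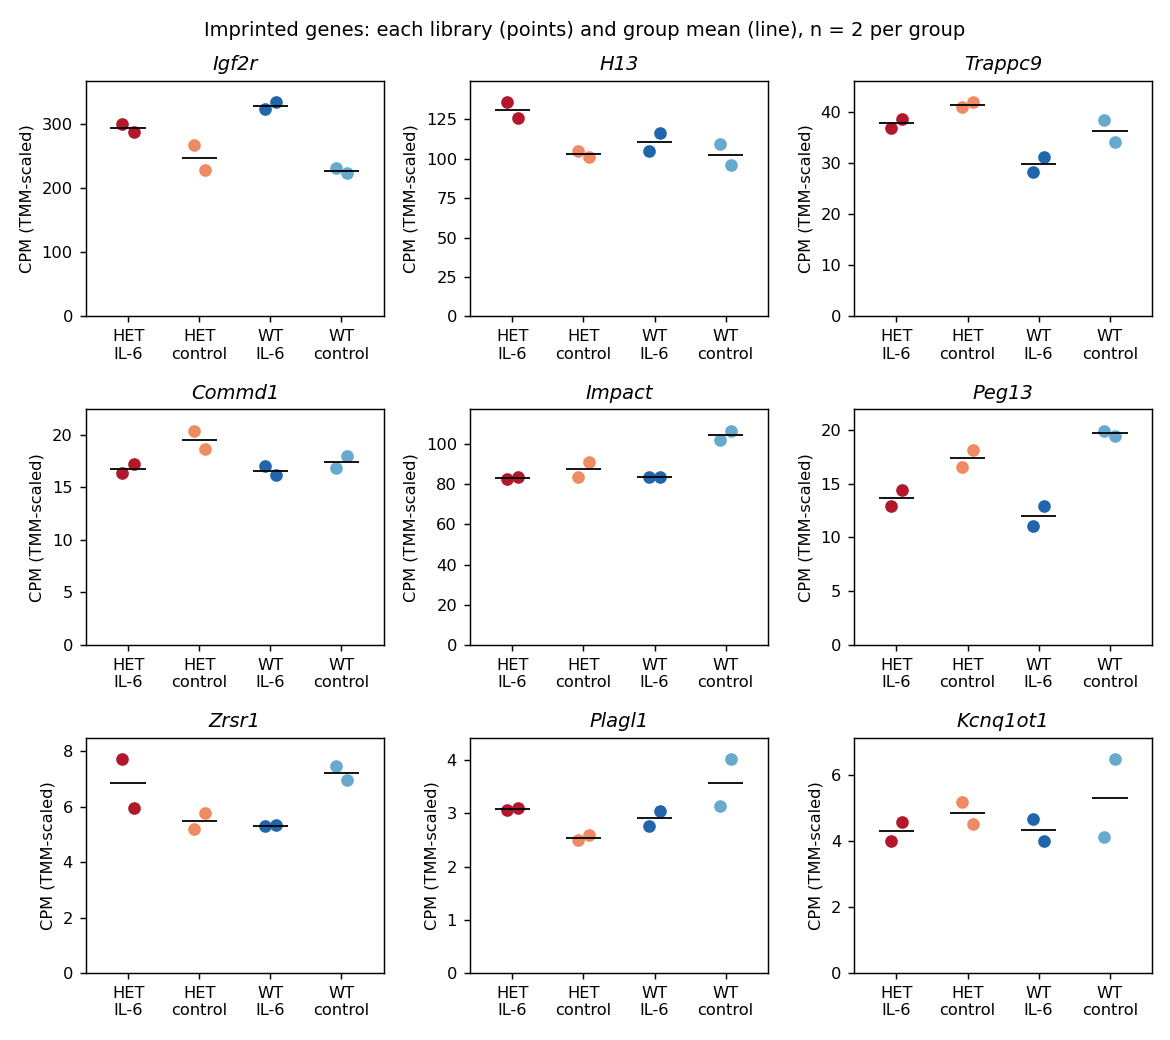
CPM (TMM-scaled, linear axes from 0) of the 9 imprinted genes measured at 1 CPM or more, with 1 point per library and a line at the mean of the 2 libraries of each group. Igf2r was at 299 and 286 CPM in HET IL-6 and at 323 and 333 CPM in WT IL-6, above all 4 control libraries, and Peg13 was below all 4 control libraries in each of the 4 IL-6 libraries.

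Igf2r (chromosome 17, 12682406 to 12769664, mm10, minus strand) had 299 and 286 CPM in HET cells with IL-6, against 267 and 228 CPM in HET control cells. In WT cells it had 323 and 333 CPM with IL-6, against 231 and 223 CPM in control. All 4 IL-6 libraries lay above all 4 control libraries, and the WT IL-6 libraries were the highest. The log2 fold change of IL-6 over control was 0.53 ± 0.09 in WT (SE, adjusted p = 0.000546), 0.24 ± 0.09 in HET (adjusted p = 0.0639) and 0.39 ± 0.06 averaged over genotype (adjusted p = 0.000287). The calls in WT and averaged over genotype held in all 15 alternative settings, with estimates of 0.49 to 0.56 in WT. The HET value passed the threshold without HET control number 1 (adjusted p = 0.0499), WT control number 1 (0.0345) or WT control number 2 (0.034), with DESeq2 (0.0434) and without the filter on low counts (0.0377). Airn, the paternal RNA that runs across the Igf2r promoter on the other strand, had 1.06 to 2.11 CPM, which per kilobase was 1.06% to 2.00% of Igf2r. Its exons overlap no exon of another gene in the annotation used, and it was called in no IL-6 comparison.

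H13 (chromosome 2, 152669461 to 152708670, mm10, plus strand) had 136 and 126 CPM in HET cells with IL-6, against 105 and 101 CPM in HET control cells. In WT cells it had 105 and 116 CPM with IL-6, against 109.5 and 95.7 CPM in control. The HET IL-6 libraries were the 2 highest of the 8, and the WT groups overlapped. The log2 fold change was 0.34 ± 0.09 in HET (edgeR adjusted p = 0.0148), 0.10 ± 0.09 in WT (adjusted p = 0.475) and 0.22 ± 0.06 averaged over genotype (adjusted p = 0.0184). The HET call was lost in 7 of the 15 alternative settings, among them the omission of any 1 of the 4 HET libraries. Without both HET number 2 libraries the HET value was 0.37 (adjusted p = 0.247). The averaged call was also lost in 7 settings, among them the omission of HET IL-6 number 1, WT IL-6 number 2, HET control number 1 or HET control number 2. Mcts2, a paternally expressed intronless relative of Mcts1 that lies within H13 on the same strand, had 0.62 to 1.24 CPM, per kilobase 5.77% to 10.1% of H13.

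Peg13 (chromosome 15, 72805600 to 72810324, mm10, minus strand) had 12.9 and 14.4 CPM in HET cells with IL-6, against 16.6 and 18.1 CPM in HET control cells. In WT cells it had 11.1 and 13.0 CPM with IL-6, against 19.9 and 19.5 CPM in control. All 4 IL-6 libraries lay below all 4 control libraries, and the WT control libraries were the highest. Peg13 fell by 0.72 ± 0.12 on the log2 scale in WT (edgeR adjusted p = 0.000647) and by 0.53 ± 0.08 averaged over genotype (adjusted p = 0.000279), and both calls held in all 15 alternative settings. In HET the log2 fold change was -0.34 ± 0.11, which did not pass the threshold (adjusted p = 0.0535) but did when libraries were scaled to total counts (0.031) and without WT IL-6 number 1 (0.042), WT IL-6 number 2 (0.0421), WT control number 1 (0.039) or WT control number 2 (0.0383).

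Trappc9 (chromosome 15, 72589620 to 73061204, mm10, minus strand), in whose span Peg13 lies on the same strand, had 36.9 and 38.8 CPM in HET cells with IL-6, against 41.1 and 41.9 CPM in HET control cells. In WT cells it had 28.4 and 31.2 CPM with IL-6, against 38.5 and 34.3 CPM in control. The IL-6 libraries lay below the control libraries of their genotype in both, without overlap, and the 2 WT IL-6 libraries were the lowest of the 8. The log2 fold change was -0.29 ± 0.09 in WT (edgeR adjusted p = 0.0465), -0.13 ± 0.09 in HET (adjusted p = 0.367) and -0.21 ± 0.07 averaged over genotype (adjusted p = 0.0302). The WT call was lost in 12 of the 15 alternative settings, among them DESeq2 (0.0777) and the omission of HET IL-6 number 1 (0.11), HET IL-6 number 2 (0.11), WT IL-6 number 1 (0.274), HET control number 1 (0.0777), HET control number 2 (0.0778) or WT control number 1 (0.236). The averaged call was lost in 11 settings, among them the omission of HET IL-6 number 1 (0.158), HET IL-6 number 2 (0.0895), WT IL-6 number 1 (0.111), HET control number 1 (0.0815), HET control number 2 (0.104) or WT control number 1 (0.0783).

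Per kilobase of exon, Peg13 stood at 58.7% and 62.4% of Trappc9 in HET IL-6 and at 67.7% and 72.5% in HET control. In WT it stood at 65.5% and 69.7% with IL-6, against 86.9% and 95.3% in control. The ratio was lower with IL-6 than in control within each genotype and lower in HET than in WT within each treatment, in every library of each pair of groups. The ratio is given as a description and was not tested. The exons of Peg13 and Trappc9 do not overlap, but reads from unspliced Trappc9 RNA at Peg13 cannot be told from Peg13 reads. Ago2, which lies next to Trappc9 and encodes the slicer of RNA interference, had 208 to 240.1 CPM and was called in none of the 7 comparisons.

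**Figure D3:**
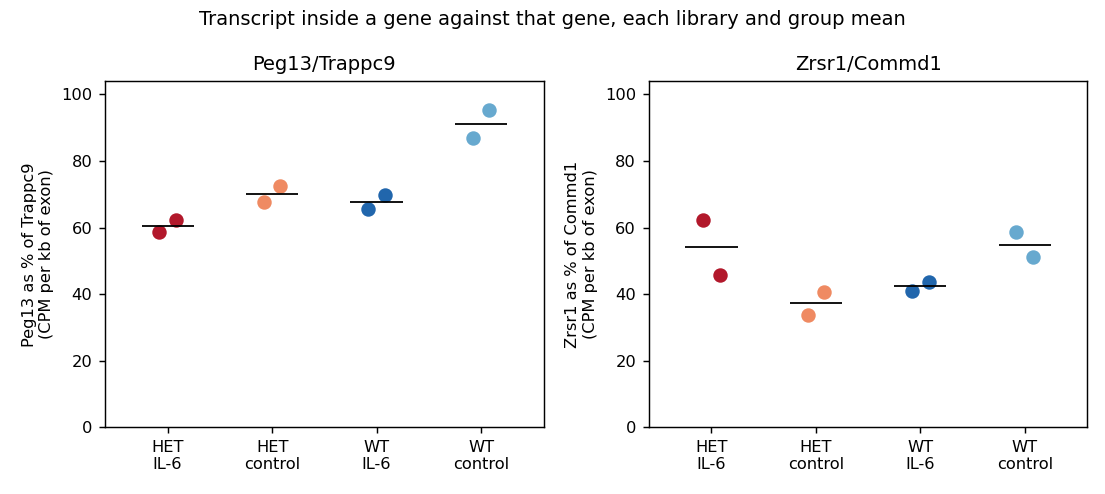
Level of Peg13 as a percent of Trappc9 and of Zrsr1 as a percent of Commd1, both in CPM per kb of exon on linear axes from 0, with 1 point per library and a line at the group mean. The Peg13 ratio was 86.9% and 95.3% in WT control and 58.7% to 72.5% in the 6 other libraries, and the Zrsr1 ratio ran from 33.7% to 62.2%.

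Zrsr1 (chromosome 11, 22972005 to 22976496, mm10, plus strand) had 7.70 and 5.97 CPM in HET cells with IL-6, against 5.20 and 5.77 CPM in HET control cells. In WT cells it had 5.29 and 5.36 CPM with IL-6, against 7.48 and 6.97 CPM in control. The IL-6 libraries lay above control in HET and below control in WT, without overlap in either. Neither response passed the threshold: the log2 fold change was 0.30 ± 0.16 in HET (edgeR adjusted p = 0.238) and -0.44 ± 0.17 in WT (adjusted p = 0.0816). Commd1 (chromosome 11, 22896136 to 22982382, mm10, minus strand), which spans Zrsr1 on the other strand, had 16.4 and 17.2 CPM in HET IL-6, against 20.4 and 18.7 CPM in HET control. In WT it had 17.0 and 16.2 CPM with IL-6, against 16.9 and 17.99 CPM in control. HET IL-6 lay below HET control without overlap and the WT groups overlapped, and the log2 fold change was -0.22 ± 0.10 in HET (adjusted p = 0.171) and -0.07 ± 0.11 in WT (adjusted p = 0.713). Zrsr1 and Commd1 share 412 exon bases on opposite strands, 9.17% of Zrsr1, so reads there cannot be assigned with the strand setting unknown. Per kilobase, Zrsr1 was at 62.2% and 45.9% of Commd1 in HET IL-6, against 33.7% and 40.8% in HET control, and at 41.1% and 43.8% in WT IL-6, against 58.6% and 51.2% in WT control.

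Impact (chromosome 18, 12955852 to 12992950, mm10, plus strand) had 82.5 and 83.4 CPM in HET cells with IL-6, against 83.7 and 91.0 CPM in HET control cells. In WT cells it had 83.6 and 83.8 CPM with IL-6, against 102 and 107 CPM in control. The WT control libraries stood above the other 6, which lay between 82.5 and 91.0 CPM. The log2 fold change was -0.32 ± 0.08 in WT (edgeR adjusted p = 0.0111), -0.07 ± 0.08 in HET (adjusted p = 0.584) and -0.20 ± 0.06 averaged over genotype (adjusted p = 0.0185). The WT call was lost in 4 of the 15 alternative settings. Among them were the omission of WT IL-6 number 1 and of either pair of same-numbered HET libraries. The averaged call was lost in 6 settings. Among them were the omission of HET IL-6 number 1, HET IL-6 number 2 or HET control number 2, and of either pair of HET libraries.

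Plagl1 (chromosome 10, 13060504 to 13131694, mm10, plus strand), which is tied to growth before birth, had 3.06 and 3.10 CPM in HET IL-6, against 2.49 and 2.59 CPM in HET control, and 2.77 and 3.05 CPM in WT IL-6, against 3.14 and 4.01 CPM in WT control. The IL-6 libraries lay above control in HET and below control in WT, without overlap, but the log2 fold changes of 0.28 ± 0.20 in HET (adjusted p = 0.405) and -0.30 ± 0.21 in WT (adjusted p = 0.364) did not pass the edgeR test. The summed level of 7 stromal markers, of which 3 reached 1 CPM and Lum was at 0, was 3.06 to 6.21 CPM in HET IL-6, 1.21 to 2.75 CPM in HET control, 5.68 to 12.1 CPM in WT IL-6 and 3.42 to 9.39 CPM in WT control. The part of such cells in the Plagl1 values was not tested. Kcnq1ot1 (chromosome 7, 143203458 to 143296549, mm10, minus strand), a paternal RNA antisense to Kcnq1 that silences neighbouring genes in cis, had 4.02 and 4.59 CPM in HET IL-6, against 5.20 and 4.52 CPM in HET control, and 4.67 and 4.02 CPM in WT IL-6, against 4.14 and 6.48 CPM in WT control. Both pairs of groups overlapped, and the adjusted p was 0.663 in HET and 0.423 in WT. Kcnq1 itself had 0.248 to 0.911 CPM.

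Snrpn (chromosome 7, 59982495 to 60140219, mm10, minus strand), which encodes a spliceosomal protein of neurons, had 1 count in WT IL-6 number 1 and 0 counts in the 7 other libraries. A floor of 3 counts was 0.0598 to 0.159 CPM in these libraries, so a level under that may not have been seen. This floor covers counting error only. Of the exon bases of Snrpn, 34.1% are shared with other genes, so reads there may not have been assigned to it either. Snhg14, of the same imprinted cluster and strand, had 1.34 to 2.95 CPM. Snurf, which shares the Snrpn transcript, was listed with 0 counts in all 8 libraries. However, all 216 of its exon bases lie in exons of Snrpn, so reads there may not have been assigned to Snurf and its 0 carries no further information. Snrpb, the gene of the related protein used in most tissues, had 138 and 145 CPM in HET IL-6, against 108 and 95.5 CPM in WT IL-6, and 157 and 159 CPM in HET control, against 129 and 126 CPM in WT control.

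HET cells differed from WT cells in 1 of these genes, Trappc9. In control cells 0 of the 9 tested genes were called by edgeR or by DESeq2, where edgeR called 4.85% of all tested genes. An unadjusted edgeR p under 0.05 was seen for 3 of the 9, beside 2903 of all 13721 tested genes. These 3 were Plagl1, Zrsr1 and Impact, with log2 fold changes of -0.49 ± 0.21, -0.40 ± 0.16 and -0.26 ± 0.08. Their HET control libraries lay below both WT control libraries, and Impact, with the smallest adjusted p of the 9 (0.0763), passed the threshold without WT control number 1 (0.0499). With both HET number 2 libraries left out, the 3 values were -0.52 for Plagl1, -0.47 for Zrsr1 and -0.32 for Impact. Of the 5 tested genes expressed from the paternal allele, all 5 had an estimate below 0 in control cells, from -0.49 to -0.12. All 4 maternally expressed or biased genes had one above 0, from 0.0056 to 0.19, and none of the 9 passed the threshold. Leaving out 1 library, the estimate ran from -0.42 to 0.23 for Kcnq1ot1 and from -0.0892 to 0.11 for H13, so these signs were not stable. All 9 genes were read from the same libraries, so their signs are not independent, and the split was not tested. The WT control libraries enter here and in the IL-6 comparison of WT cells, so these 2 sets of estimates are not independent. In IL-6-treated cells that split was not seen: 3 of the 5 paternal genes had an estimate above 0. There 1 of the 9 was called, where 22% of all tested genes were.

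Trappc9 was higher in HET than in WT cells with IL-6, at 36.9 and 38.8 CPM against 28.4 and 31.2 CPM. The log2 fold change was 0.35 ± 0.09 with IL-6 (edgeR adjusted p = 0.0178), 0.19 ± 0.09 in control (adjusted p = 0.254) and, as the average of both treatments, 0.27 ± 0.07 (adjusted p = 0.0131), where 1 of 9 genes was called against 19.9% of all tested genes. The HET libraries were above the WT libraries in both treatments, without overlap. With IL-6 the call was lost in 5 of the 15 alternative settings, among them the omission of HET IL-6 number 1, HET IL-6 number 2 or WT IL-6 number 1. The averaged call was also lost in 5, among them the omission of HET IL-6 number 2, WT IL-6 number 1 or HET control number 2. Without both HET number 2 libraries the value was 0.31 with IL-6 (adjusted p = 0.236) and 0.24 averaged (adjusted p = 0.204). The summed endothelial markers were higher in HET than in WT with IL-6 (138 to 140 CPM against 98.9 to 100 CPM) and lower in control (87.4 to 97.6 CPM against 113 to 142 CPM). The stem and progenitor markers went the other way, lower in HET with IL-6 (15.6 to 18.1 CPM against 35.7 to 45.5 CPM) and higher in control (24.5 to 31.2 CPM against 20.2 to 20.6 CPM). The part of such cells in the Trappc9 values was not tested.

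**Figure D4:**
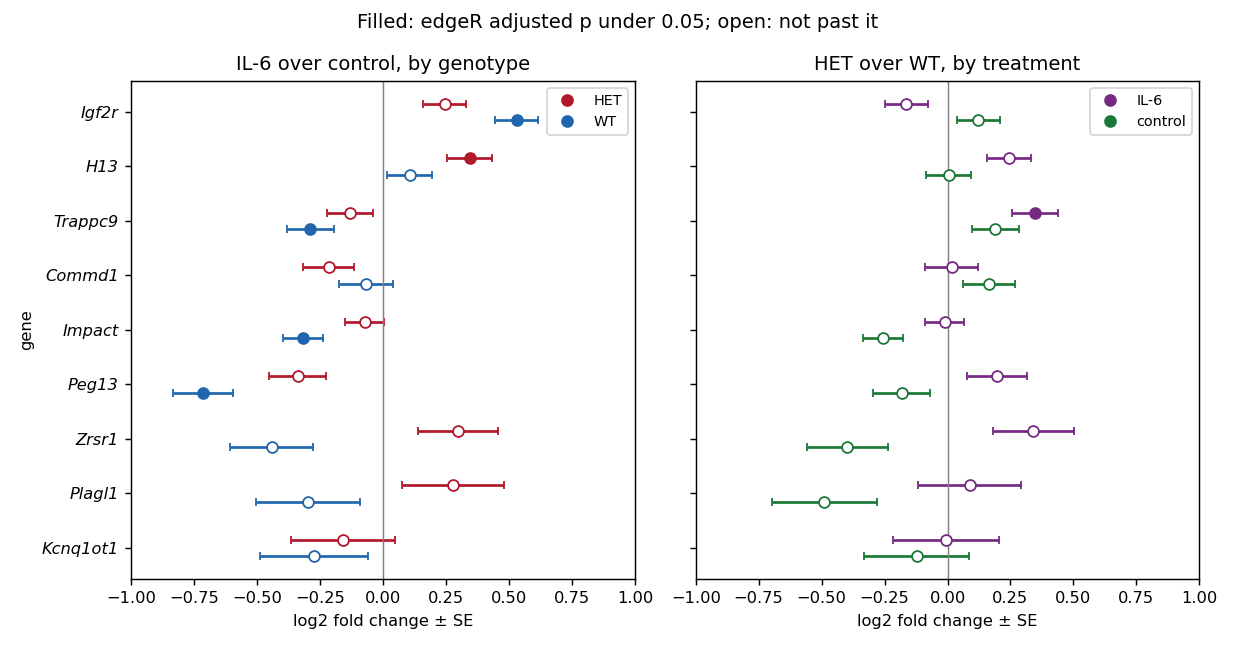
Log2 fold change ± SE (linear axis) of the 9 tested imprinted genes: on the left for IL-6 over control in HET and in WT, on the right for HET over WT with IL-6 and in control. Filled points passed edgeR's test at an adjusted p under 0.05, which were Igf2r, Trappc9, Impact and Peg13 in WT and H13 in HET on the left, and Trappc9 with IL-6 on the right.

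Whether the IL-6 response differed between the genotypes was tested as the HET response minus the WT response. By edgeR 0 of the 9 genes were called, where 8.12% of all tested genes were, and DESeq2 also called 0. An unadjusted edgeR p under 0.05 was seen for 4 of the 9, beside 3042 of all 13721 tested genes. Zrsr1 came closest, with a difference of 0.74 ± 0.23 on the log2 scale (adjusted p = 0.0655), and passed the threshold without WT control number 2 (0.0475) and without the filter on low counts (0.04); without both HET number 2 libraries it was 1.01 (0.0884). Peg13 had a difference of 0.38 ± 0.16 (adjusted p = 0.192), Impact one of 0.24 ± 0.11 (adjusted p = 0.21) and Igf2r one of -0.29 ± 0.12 (adjusted p = 0.178). For Peg13, Impact and Igf2r the HET estimate was of the same sign as the WT estimate and nearer 0, and a p that misses the threshold does not show that the 2 responses were alike.

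The genes with the profile most like that of Peg13, Igf2r and Trappc9, the 3 with the widest range of group means, were found by the root mean square difference of centred log2 CPM over the 8 libraries, among 9252 genes. For Peg13 these were Acss1 (0.0646), Gpr160 (0.0673) and Mxd4 (0.0731). For Igf2r they were Pdia4 (0.0464), Atp2a2 (0.0579) and Pomk (0.0616). For Trappc9 they were Cc2d1b (0.0198), Dbnl (0.0252) and Fes (0.0315).

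Of 77 other genes listed as imprinted, 17 had no count in any library and 40 were tested. Whether these genes are imprinted in macrophages was not tested. With IL-6, 12 of the 40 were called in HET (3 higher, 9 lower) and 8 in WT (2 higher, 6 lower), 30% and 20% of the 40, beside 18.3% of all tested genes in each. Their median log2 fold change was -0.04 in HET and -0.18 in WT. The number called in HET fell when either pair of same-numbered HET libraries was left out, as it did over all genes. In WT the number called did not fall. The growth factor adaptor gene Gab1 rose by 1.79 ± 0.11 in HET (edgeR adjusted p = 5.6e-08) and by 1.78 ± 0.11 in WT (adjusted p = 7.94e-08). Cmah, which makes the sialic acid Neu5Gc, fell by 2.80 ± 0.14 in HET (adjusted p = 1.16e-08) and by 2.56 ± 0.14 in WT (adjusted p = 2.79e-08). The cell cycle inhibitor gene Cdkn1c, a neighbour that Kcnq1ot1 silences in cis on the paternal copy, was low and fell to 0.456 and 0.182 CPM in HET IL-6, against 1.14 and 1.13 CPM in HET control, and to 0.413 and 0.214 CPM in WT IL-6, against 1.27 and 1.19 CPM in WT control. Its log2 fold change was -1.98 ± 0.44 in HET (adjusted p = 0.00587) and -1.91 ± 0.47 in WT (adjusted p = 0.0106), calls that were lost without HET IL-6 number 2 (0.139) and without WT IL-6 number 2 (0.0703), and a gene on the other strand overlaps 30.7% of its exon bases. Between HET and WT, 11 of the 40 were called with IL-6 (5 higher, 6 lower) and 3 in control (1 higher, 2 lower), beside 22% and 4.85% of all tested genes. With both HET number 2 libraries left out, both counts fell, as did those over all genes.

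**Figure D5:**
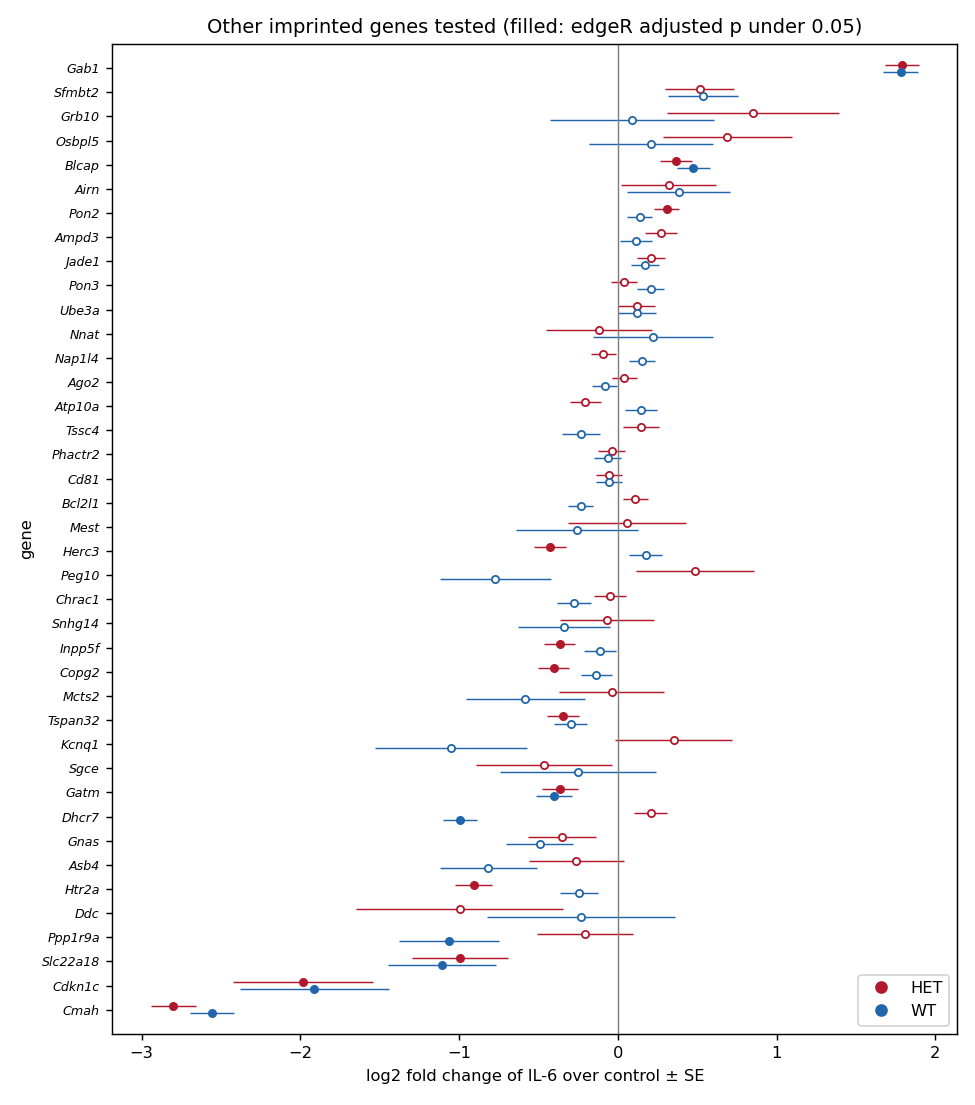
Log2 fold change ± SE of IL-6 over control (linear axis) in HET and in WT for the 40 other imprinted genes tested, ordered by the mean of the 2 values, with filled points where edgeR's adjusted p was under 0.05. Gab1 stood at 1.79 in HET and 1.78 in WT at the top, and Cmah at -2.80 in HET and -2.56 in WT at the bottom.

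Of 17 listed factors that set, keep or remove methylation marks, 14 were tested. With IL-6, 5 of 14 were called in HET (1 higher, 4 lower) and 1 in WT (lower), 35.7% and 7.14% of the 14, beside 18.3% of all tested genes in each. When either pair of same-numbered HET libraries was left out, the number called in HET fell, as it did over all genes. The number called in WT did not. Between HET and WT, 1 was called with IL-6 (Smchd1, lower) and 2 in control (Uhrf1 and Dnmt1, both higher), 7.14% and 14.3% of the 14, beside 22% and 4.85% of all tested genes. Leaving out 1 library, the log2 fold change ran from -0.63 to -0.24 for Smchd1 with IL-6 and from 0.25 to 0.36 for Dnmt1 in control. The Smchd1 call was lost in 3 and the Dnmt1 call in 5 of these 8 omissions. Uhrf1, which brings DNMT1 to newly copied DNA, had 144 and 138 CPM in HET IL-6, against 201 and 186 CPM in HET control, and 149.6 and 147 CPM in WT IL-6, against 136 and 141 CPM in WT control. Its 2 HET control libraries were the highest, and the log2 fold change was -0.46 ± 0.08 for IL-6 in HET (edgeR adjusted p = 0.000745) and 0.48 ± 0.08 for HET over WT in control (adjusted p = 0.00486). The call of Uhrf1 between HET and WT in control held without both HET number 2 libraries (log2 fold change 0.54). Uhrf1 was no longer called there without HET control number 1 or without both HET number 1 libraries (0.43). Its call for IL-6 in HET was lost when the pair of HET number 2 libraries (0.0753) or the pair of HET number 1 libraries (0.157) was left out.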

How the data were processed

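Per the labels, libraries were made from polyadenylated RNA with a stranded kit. The values are whole-number gene counts as the authors deposited them, in a table of 55376 genes and 8 library columns. The submitters' processing notes list featureCounts 1.6.2, SAMtools 1.9, STAR 2.7.9a, fastp 0.12.4 and build mm10. Not given in the sources used here were the annotation release and the strand setting, so genes with shared exon bases are uncertain. Coordinates and exon lengths come from the table itself, and overlaps were computed from those coordinates.

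Counts were tested in R 4.3.3 with edgeR 4.0.16: filterByExpr (minimum count 10, 13721 genes), TMM scaling, and a 2-sided quasi-likelihood F test on 1 mean per group over all 8 libraries (4 residual degrees of freedom), with Benjamini-Hochberg adjustment over all tested genes and calls at an adjusted p under 0.05. The code was tested on simulated data. CPM values are TMM-scaled and ± is the SE. Detection meant 1 CPM. All totals were at least 18926641 counts, and 3 counts served as the floor. The 15 alternatives were RLE factors, total-count scaling, no filter, DESeq2 1.42.0, a replicate block, each library left out, and both HET number 1 or both HET number 2 libraries left out. Libraries of a group differed beyond sampling noise (chi-square per gene 6.66 to 19.2).

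The members and lists were chosen with earlier results of these data known. All 10 members are named, with locus neighbours, close paralogues, Dnmt3a, up to 6 called genes per list and comparison, and the 3 genes most like each of the 3 members with the widest range of group means, among those with a mean of at least 5 CPM.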

Additional observations from a re-analysis of the deposited data

Results flagged for a closer look

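The IL-6 response differed between the genotypes, by edgeR's test of HET minus WT on the log2 scale, in 3 of the 40 other imprinted genes tested (7.5%) and 1 of the 14 methylation factors tested (7.14%), shares near the 8.12% of all tested genes, and in 0 of the 9 imprinted genes described first. Dhcr7, the last enzyme of cholesterol synthesis, differed by 1.20 ± 0.15 (adjusted p = 0.000404): it had 67.1 and 67.1 CPM in HET IL-6, against 55.0 and 61.2 CPM in HET control, and 36.8 and 39.5 CPM in WT IL-6, against 84.6 and 67.4 CPM in WT control. Its call held in all 15 alternative settings, with a difference of 1.28 (adjusted p = 0.000376) without both HET number 2 libraries. Herc3, a ubiquitin ligase gene, differed by -0.60 ± 0.14 (adjusted p = 0.0211), with 28.6 and 30.0 CPM in HET IL-6, against 41.7 and 37.1 CPM in HET control, and 42.0 and 35.6 CPM in WT IL-6, against 33.2 and 35.6 CPM in WT control. The call of Herc3 was lost without HET IL-6 number 1 (0.0865), HET IL-6 number 2 (0.0585), WT IL-6 number 1 (0.0922) or HET control number 1 (0.138). Htr2a, a serotonin receptor gene, differed by -0.66 ± 0.17 (adjusted p = 0.0263), with 11.2 and 10.8 CPM in HET IL-6, against 20.6 and 20.7 CPM in HET control, and 14.8 and 13.9 CPM in WT IL-6, against 15.3 and 18.8 CPM in WT control. The call of Htr2a was lost without HET IL-6 number 1 (0.0795), HET IL-6 number 2 (0.108), WT IL-6 number 1 (0.0843), HET control number 1 (0.11), HET control number 2 (0.0787) or WT control number 1 (0.0724). Uhrf1 differed by -0.56 ± 0.11 (adjusted p = 0.00749), and its call was lost without HET IL-6 number 2 (0.051) or HET control number 1 (0.0731). When both HET number 2 libraries were left out, the calls of Herc3 (-0.72, adjusted p = 0.0709), Htr2a (-0.63, adjusted p = 0.232) and Uhrf1 (-0.58, adjusted p = 0.118) were lost, and without both HET number 1 libraries they were lost as well (0.409, 0.251 and 0.25).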

How the results depend on the processing

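With 2 libraries per group, small changes of low genes such as Plagl1 and Kcnq1ot1, with 57 to 227 counts, could not be resolved. Among the imprinted genes, the calls of Igf2r and Peg13 in WT and averaged over genotype held in all 15 alternatives, and every other call was lost in at least 4. Causes were not tested. RLE factors and total-count scaling reversed no estimate.

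Leaving out 1 library, the imprinted genes called (and all genes called) numbered 0 to 3 (1201 to 3061) for IL-6 in HET, 2 to 4 (1577 to 3073) for IL-6 in WT, 2 to 5 (2301 to 3544) averaged over genotype, 0 to 2 (879 to 4000) for HET over WT with IL-6, 0 to 1 (33 to 1304) in control, 0 to 2 (940 to 4500) averaged, and 0 to 1 (304 to 2124) for the difference of responses. Without both HET number 2 or both HET number 1 libraries, 2 and 2 were called for IL-6 in WT, 2 and 2 averaged over genotype, and 0 and 0 for IL-6 in HET, for HET over WT with IL-6 and for its average. Over all genes these counts were 835 and 697 against 2508 for IL-6 in HET, 1715 and 1724 against 3243 averaged over genotype, 862 and 1042 against 3021 for HET over WT with IL-6, 203 and 79 against 666 in control, 435 and 720 against 2729 averaged, and 428 and 188 against 1114 for the difference. For IL-6 in HET, 2 of the imprinted genes were called with total-count scaling, DESeq2 or no filter. Without the filter, 2 were called for HET over WT with IL-6, 1 for the difference, and 1078 genes in all for HET over WT in control.

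The labels do not say that a replicate number marks a mouse, and same-numbered libraries deviated together little (r = 0.152 between the HET groups, -0.113 between the WT groups, -0.059 to 0.0312 otherwise). With the replicate block, the imprinted genes called were 0 for IL-6 in HET, 2 in WT and 2 averaged over genotype, and all genes called were 339 for HET over WT in control and 732 for the difference.

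Some estimates that had passed no test changed sign. Without both HET number 2 libraries these were Zrsr1 for IL-6 averaged over genotype (0.0621) and, for HET over WT, Commd1 with IL-6 (-0.0205), Igf2r (0.0508), Peg13 (-0.0707) and Zrsr1 (0.0306) averaged, and Kcnq1ot1 in the difference (-0.0936). Without both HET number 1 libraries they were Kcnq1ot1 for IL-6 in HET (0.0374) and, for HET over WT, H13 in control (-0.0203), Impact (0.0014), Kcnq1ot1 (0.0812) and Dnmt3a (0.26) with IL-6, and Dnmt3a averaged (0.10). Without the filter they were Plagl1 for IL-6 averaged (0.0060) and, for HET over WT with IL-6, Impact (0.00883), Kcnq1ot1 (0.017) and Dnmt3a (0.00755). With DESeq2, Peg13 averaged over treatment changed sign (-0.00103). Leaving out 1 library, the ranges that crossed 0 for IL-6 over control were -0.57 to 0.0741 for Kcnq1ot1 in WT, -0.56 to 0.0883 for Dnmt3a in HET, and -0.15 to 0.0335 for Zrsr1 and -0.0944 to 0.0801 for Plagl1 averaged over genotype. For HET over WT in control they were -0.42 to 0.23 for Kcnq1ot1 and -0.0892 to 0.11 for H13, and with IL-6 -0.13 to 0.11 for Kcnq1ot1, -0.0371 to 0.0563 for Commd1 and -0.37 to 0.24 for Dnmt3a. Averaged over treatment they were -0.0794 to 0.0353 for Igf2r, -0.0502 to 0.0603 for Peg13, -0.12 to 0.0631 for Zrsr1 and -0.21 to 0.11 for Kcnq1ot1, and in the difference -0.23 to 0.41 for Kcnq1ot1 and -0.0492 to 0.63 for Dnmt3a.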
